A study of Mus musculus with 2 samples.

Results

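The brush border and secreted phospholipases examined here are 9 genes, Plb1, Pla2g5, Pla2g2a, Pla2g1b, Pla2g10, Pla2g12a, Pla2g12b, Pla2g4a and Pla2g4c, of 17162 genes measured in mouse small intestine. They were chosen by name, with the diet ratios of Plb1 and Pla2g5 on these same arrays already known, so the ratios of the family between diets are a description and are given with no test. Every probe carrying 1 of these names was taken, which gave 15 probes on each array, each printed as 1 spot. Of these, 12 probes, for 8 genes, were measured, meaning that they stood well above background in at least 1 diet on both arrays, and Pla2g1b was the gene that did not. Plb1 was 8.34-fold lower and Pla2g5 5.99-fold lower on the food antigen-free diet, while the 6 other measured genes differed by less than 2-fold.

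The tissue was small intestine, taken as total RNA from C57BL/6 mice that were 6 to 8 weeks old. The control group ate conventional chow (Conv), and the food antigen-free group (FAF) ate an amino acid diet, on which the animals had been held for up to 5 generations. The labels name both specific-pathogen-free and germ-free animals without saying which gave these samples, and no source used here says if a sample was 1 mouse or a pool. The samples were hybridised to 2 two-colour arrays that carry the same pair of RNA codes with the dyes exchanged, so there is 1 RNA sample per diet and no replicate check between diets. Each ratio below is the log2 ratio of FAF over Conv, and the ± gives how far each array lies from the mean of both, an error of dye and hybridisation that holds no spread between mice. The RNA is of whole tissue, so fewer cells of a type and less RNA per cell cannot be told apart in any value below.

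Phospholipases cut the phospholipids of bile, diet and shed cells, and those of cell membranes. Phospholipases A2 release the fatty acid of the middle position and leave a lysophospholipid; when the fatty acid is arachidonic acid it feeds the synthesis of prostaglandins and leukotrienes. In the gut lumen, the pancreas supplies Pla2g1b, enterocytes carry phospholipase B (Plb1) on the brush border, and Paneth cells secrete Pla2g2a, which kills bacteria. Pla2g4a and Pla2g4c work inside cells, so the name of the family covers 7 of its 9 genes. Their roles set the order below: the brush border enzyme, the secreted enzymes, and the cytosolic enzymes.

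Plb1 is the member with most probes, 4 in all, and its probe sequences are shown because 1 of them gives the ratio and the other measured ones give bounds. The pair that the array's design ties to RefSeq transcripts of Plb1 is printed here 5′ to 3′, with no stretch singled out in capitals; both are 60 bases long and lie on chromosome 5 of mouse build mm9, plus strand. The first lies within 1 block at chr5:32666473-32666532. The second spans 595 bases of the genome, chr5:32630832-32631426, and so crosses at least 1 intron. Exons and UTRs were not assigned, since no gene annotation on mm9 was used.
A_52_P686218: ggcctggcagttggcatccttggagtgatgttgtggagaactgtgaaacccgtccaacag
A_52_P311519: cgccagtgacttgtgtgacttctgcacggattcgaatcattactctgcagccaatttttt
The first has a GC content of 55.0% and the second of 45.0%. The longest run of bases shared by any pair of the 15 member probes was 10 bases, and 0 of them shared a run of 20 bases with another probe of the array.

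Plb1, the brush border enzyme that can strip both fatty acids from a phospholipid and also splits retinyl esters, fell most. On A_52_P686218 the mean spot intensity of the Conv RNA was 1805 in Cy3 on the first array and 5619 in Cy5 on the second, and that of the FAF RNA was 688 in Cy5 and 235 in Cy3. The median spot was brighter in Cy5 than in Cy3 before background correction. The medians were 161.2 against 52.0 on the first array and 152.8 against 58.8 on the second. Background correction and then loess act on this gap between the dyes. After these steps, the ratio was -2.93 where FAF carried Cy5 and -3.19 where it carried Cy3, that is 7.62-fold and 9.14-fold lower. The mean was -3.06 ± 0.13, or 8.34-fold lower in FAF, and all 4 channel readings stood well above background.

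The other Plb1 probes were dimmer, and those measured were also below 0 but give only bounds. A_52_P311519 read 82.8 (Cy3) and 219 (Cy5) in Conv against 99.1 (Cy5) and 31.0 (Cy3) in FAF. In FAF it was not well above background on either array, so its ratio of -1.07 ± 0.07 is a bound of at least 2.10-fold lower. A bound here sets the mean normalized signal of the bright diet against the higher of the dim probe's own signal and the lowest signal that counted as well above background on that array. A_51_P238803, at chr5:32667933-32667992, was likewise not well above background in FAF on both arrays, and its -0.32 ± 0.04 is a bound of at least 1.25-fold. Its mean intensities were 42.1 and 123 in Conv against 96.1 and 36.4 in FAF, the last value of each pair being from the second array. A_51_P108031, at chr5:32595647-32595706, was well above background in Conv on 1 of 2 arrays and in FAF on neither, with 29.2 and 106 in Conv against 76.6 and 27.7 in FAF, and counts as not measured.

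**Figure D1:**
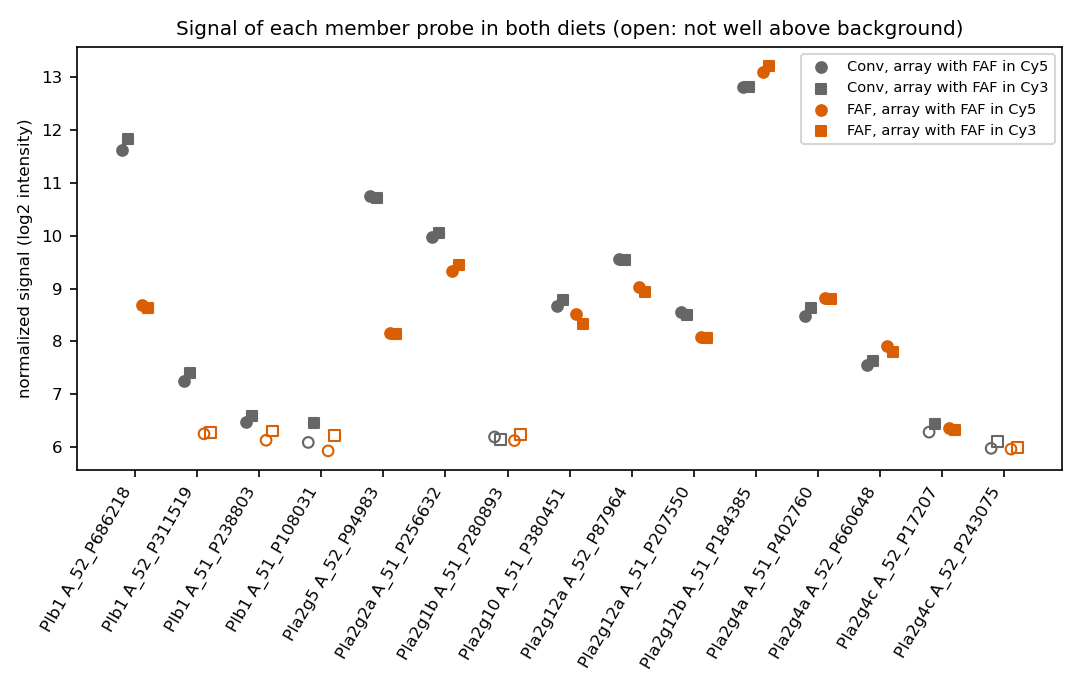
Normalized log2 intensity (y axis) of each of the 15 member probes (x axis) in the Conv RNA (grey) and the FAF RNA (orange), circles for the array with FAF in Cy5 and squares for the array with FAF in Cy3, open where the spot was not well above background. Plb1 A_52_P686218 and Pla2g5 show the widest gaps between diets with all points filled, the FAF points of the other 3 Plb1 probes are open, and heights of different probes are not comparable.

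The values of the dim Plb1 probes, which are no measured folds since FAF was not well above background, moved with the treatment of background. With a smaller normexp offset, 10 in place of 50, A_52_P311519 gave -1.82 and A_51_P238803 gave -0.65. The ratio computed by the scanner software put A_52_P311519 at -3.54 and A_51_P238803 at -1.32, values set against a FAF signal that was not well above background and so not read as folds. The bright probe moved far less, from -3.06 to -3.31 (9.91-fold lower) by the software's ratio. The bounds of at least 2.10-fold and at least 1.25-fold do not conflict with the 8.34-fold of the bright probe, and whether the probes differ in their ratio cannot be read from these arrays.

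**Figure D2:**
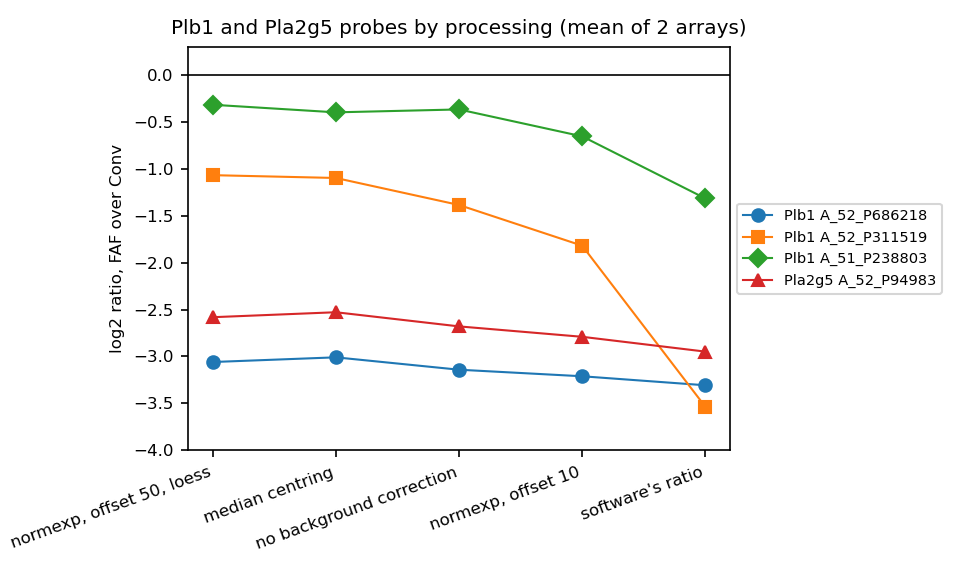
Mean log2 ratio of FAF over Conv on the 2 arrays (y axis) for the 3 measured Plb1 probes and the Pla2g5 probe under 5 ways of treating background and dye (x axis); lines join the values of a probe. Plb1 A_52_P686218 stays between -3.01 and -3.31 and Pla2g5 between -2.53 and -2.95, while Plb1 A_52_P311519, not well above background in FAF, runs from -1.07 to -3.54.

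Pla2g5, the group V secreted phospholipase A2, which acts on phosphatidylcholine and is known from macrophages, heart and airway, was the other gene that fell by more than 2-fold. Its single probe, A_52_P94983, at chr4:138355365-138355424 on the minus strand, read 988 (Cy3) and 2559 (Cy5) in Conv and 474 (Cy5) and 162 (Cy3) in FAF. The normalized ratios were -2.59 and -2.57. Their mean, -2.58 ± 0.01, is 5.99-fold lower in FAF, the closest agreement between arrays in the family. All 4 readings were well above background. The software's ratio was -2.95, or 7.72-fold lower.

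Pla2g2a, the bactericidal enzyme of Paneth cells, came next at -0.62 ± 0.02, or 1.54-fold lower. Its probe, at chr4:138390766-138390825, read 563 and 1630 in Conv against 1052 and 444 in FAF, and both arrays gave a lower FAF value, -0.64 and -0.60. C57BL/6 mice carry a natural frameshift in this gene and make no active enzyme from it, and RefSeq lists it as a transcribed pseudogene, so the value is a transcript level without the enzyme. Of 9 Paneth cell markers, all measured, 8 were below 0 and 4 passed the rule of size given below as lower in FAF, with a median of -0.90. Among them were Mptx1, a mucosal pentraxin, at -1.77 ± 0.02 and Defa20, an alpha-defensin, at -1.33 ± 0.48. The summed normalized signal of the 9 ranged from 528782 to 559427 over the arrays in Conv and from 247459 to 325546 in FAF. Here and below, such a sum adds probes of unlike brightness and follows the brightest of them. Their part in the Pla2g2a value was not tested.

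The other secreted members were small or mixed in their differences. Pla2g12a, a widely expressed secreted enzyme of low activity, had probes that the array's design ties to different RefSeq transcripts. They gave -0.57 ± 0.05 and -0.45 ± 0.03, the latter from a probe that crosses an intron. The brighter of these, A_52_P87964, read 420 and 1134 in Conv and 853 and 304 in FAF. Pla2g10, the group X enzyme of gut epithelium, which acts strongly on phosphatidylcholine, had the widest gap between arrays among the members, with -0.16 and -0.47 and a mean of -0.31 ± 0.16. It read 219 and 655 in Conv and 586 and 195 in FAF.

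Pla2g12b, a relative with no catalytic activity that takes part in the secretion of triglyceride-rich lipoproteins, was the measured member with the highest ratio. It read 3972 and 11723 in Conv and 15020 and 6039 in FAF, all far above background. The ratios of 0.30 and 0.40 gave 0.35 ± 0.05, or 1.27-fold higher in FAF. Pla2g1b, the digestive enzyme of pancreatic juice, did not rise well above background on any channel, with 30.9 and 81.3 in Conv and 89.8 and 32.5 in FAF. The pancreatic transcripts Pnlip, Cela2a, Prss2 and Amy2a5 were not above background either. The other 8 of 12 pancreas markers were measured, with a median of 0.07; of these, Sycn, a zymogen granule protein, passed the rule of size at 1.28 ± 0.01.

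The cytosolic enzymes differed little. Pla2g4a, which releases arachidonic acid from membranes when calcium rises, gave 0.25 ± 0.07 on the probe at chr1:151677133-151677192 and 0.26 ± 0.10 on a second probe that crosses an intron. The first read 189 and 582 in Conv and 709 and 280 in FAF, and all 4 ratios from its 2 probes were above 0, between 0.16 and 0.37. Pla2g4c, a membrane-bound enzyme that needs no calcium, lay at the edge of detection. Its measured probe gave 0.08 and -0.12, a mean of -0.02 ± 0.10 with no direction, and was well above background in Conv on 1 of 2 arrays; its other probe was not measured.

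**Figure D3:**
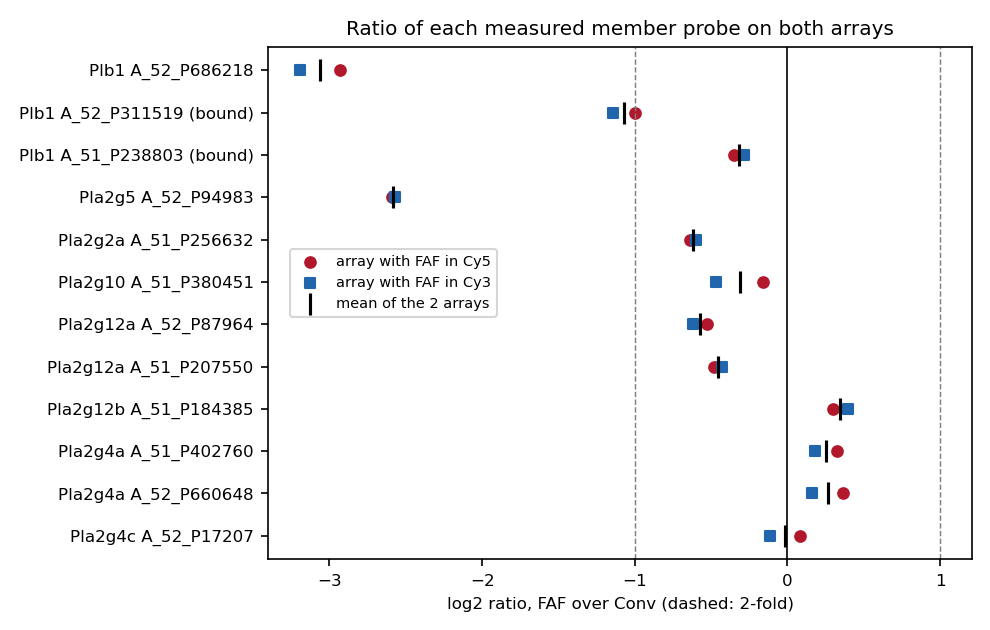
Log2 ratio of FAF over Conv (x axis) for the 12 measured member probes (y axis) on the array with FAF in Cy5 (circles) and with FAF in Cy3 (squares), with their mean (bar); probes marked as a bound were not well above background in FAF, and dashed lines mark 2-fold. After loess, the arrays give the same sign for 11 of 12 probes, Pla2g4c being the exception. Plb1 A_52_P686218 and Pla2g5 lie apart from the rest below -2.5.

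By the rule of size, a mean ratio of at least 2-fold with at least 1.5-fold the same way on both arrays, 2 of the 8 measured members were lower in FAF and 0 were higher. Over all 17162 measured genes, 151 were lower, 0.88%, and 263 were higher, 1.53%. Since the members were chosen with these ratios known, nothing is read from their count against that share. The member nearest to the limit among those that passed was Pla2g5 at -2.58, well beyond 2-fold, and the nearest among those that did not was Pla2g2a at -0.62. In order from the lowest ratio of all genes, Plb1 held place 2, Pla2g5 place 7, Pla2g2a place 548, Pla2g12a place 661, Pla2g10 place 2186, Pla2g4c place 8113, Pla2g4a place 14225 and Pla2g12b place 15222. Neighbours in that order whose ranges over the arrays overlap are Pla2g2a with Pla2g12a and Pla2g4a with Pla2g12b. The median of the 8 members was -0.44, against -0.001 over all genes, and for the same reason nothing is read from that difference. Their distances from the mean ran from 0.01 to 0.16, where the median over all genes was 0.06 and the 95th percentile 0.17.

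**Figure D4:**
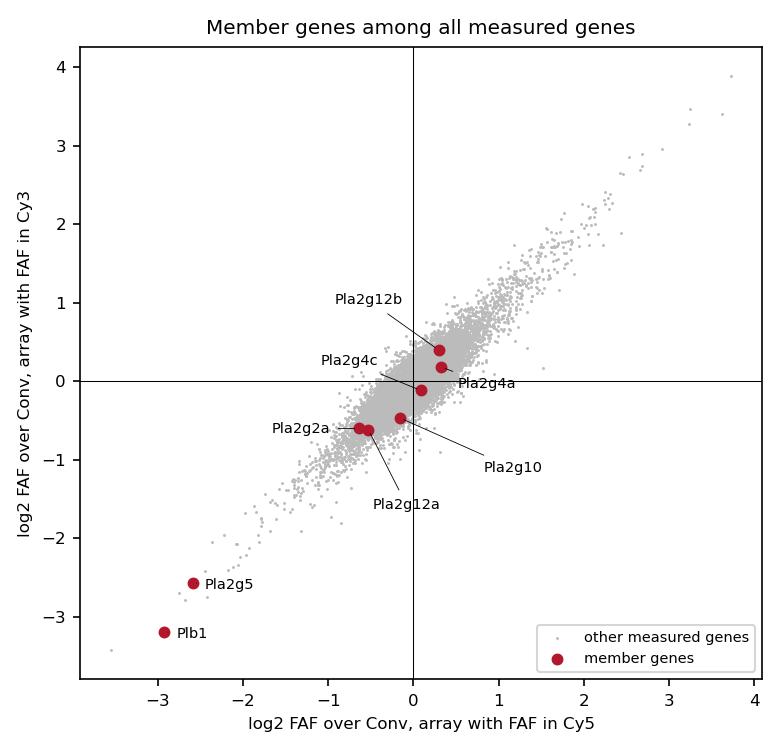
Log2 ratio of FAF over Conv on the array with FAF in Cy5 (x axis) against that on the array with FAF in Cy3 (y axis) for all 17162 measured genes (grey points) and the 8 measured members (red points, named). Plb1 and Pla2g5 lie at the lower left end of the cloud on both arrays, and the other 6 lie within or at the edge of its dense centre.

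The genes whose pair of array ratios lay nearest to that of Plb1, among 13411 genes well above background in both diets, were Reg3g, an antibacterial lectin, at a distance of 0.26 log2 units, Ubd, a ubiquitin-like modifier induced by interferon, at 0.48, and Cfd, complement factor D, at 0.53. For Pla2g5 they were Cfd at 0.20, Duoxa2, the maturation factor of an epithelial hydrogen peroxide producing oxidase, at 0.22 and Ubd at 0.23. Their mean ratios were -2.91 for Reg3g, -2.73 for Ubd, -2.72 for Cfd and -2.43 for Duoxa2. This likeness is over 2 arrays of the same RNA, so it says only that these genes fell by a like amount.

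Genes beside Plb1 and Pla2g5 on their chromosomes did not pass the rule. Of the 6 genes on each side of Plb1 on chromosome 5, 10 of 12 were measured, with ratios from -0.36 (Mrpl33) to 0.81 (Pisd), and 0 passed. Pla2g5 lies on chromosome 4 in a cluster of secreted phospholipases A2, with Pla2g2a and Pla2g2d on either side of it. Of its 12 neighbours 8 were measured and 0 passed. Within the cluster, Pla2g2c gave -0.24 ± 0.19, Pla2g2f -0.47 ± 0.09, Pla2g2d 0.46 ± 0.04 and Pla2g2a -0.62 ± 0.02, and Pla2g2e was not above background. The gap of Pla2g5 to its lowest measured neighbour, Pla2g2a, was thus between ratios of -2.58 and -0.62.

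Promoter sequence was available for 8 of the 9 genes, with 12 start sites among them, as 250 bases before each start from RefSeq on build GRCm38.p6; Pla2g2a was not matched. Motifs were searched on both strands. The STAT letters TTCNNNGAA occurred in 0 of the 12 and in 7.02% of the 32851 promoters of the table, and the HNF4 letters CAAAGTCCA in 0 and in 0.384%. The GATA letters AGATAA occurred in 2 of the 12, Pla2g5 and Pla2g12a, and in 9.99% of all promoters. The CDX letters TTTAT occurred in 4 of the 12 and in 37.3%, and the NF-kB consensus in 1, that of Pla2g12b, and in 3.9%. The promoters shown are those of the genes that fell, at the start site where a motif was found, with the motif in capitals on the strand of the gene (ATAAA is TTTAT on the other strand).
Plb1, chr5:32238834-32239083, plus strand: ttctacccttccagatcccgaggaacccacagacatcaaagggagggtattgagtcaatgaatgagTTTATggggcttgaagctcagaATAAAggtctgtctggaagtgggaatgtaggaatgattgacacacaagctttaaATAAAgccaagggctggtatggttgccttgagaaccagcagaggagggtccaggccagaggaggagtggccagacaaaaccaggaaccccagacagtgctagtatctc
Pla2g5, chr4:138819258-138819507, minus strand: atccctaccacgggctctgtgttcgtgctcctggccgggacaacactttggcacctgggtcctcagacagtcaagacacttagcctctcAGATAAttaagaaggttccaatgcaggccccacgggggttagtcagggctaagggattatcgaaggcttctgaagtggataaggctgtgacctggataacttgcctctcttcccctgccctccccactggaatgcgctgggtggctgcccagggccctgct
The Plb1 stretch holds TTTAT 3 times, first at -184 on the strand of the gene and then at -162 and -108 on the other strand, counted from the start site to the first base of each match. The Pla2g5 stretch holds AGATAA at -161. The second start site of Plb1 and the other start site of Pla2g5 held none of the motifs searched, and the stretches shown have no motif of this search in common. A match is a description of letters and not evidence of a bound factor.

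Relatives of the family, in lists drawn up for this comparison, mostly kept within 2-fold. Of 23 other phospholipases A2 and related enzymes, 19 were measured, with a median of 0.09; 0 were higher by the rule and 1 was lower, Plaat3, a phospholipase A of adipocytes that the array calls Pla2g16, at -1.47 ± 0.10. Of 9 fat tissue markers, 8 were measured and 5 passed as lower, among them Cfd at -2.72 ± 0.02 and Adipoq, the hormone adiponectin, at -2.08 ± 0.001, while Cidec, a lipid droplet protein that enterocytes also make, was higher at 1.06 ± 0.11. The median of the fat markers was -1.20, Lep was not above background, and their summed signal ranged from 22691 to 23423 in Conv and from 20428 to 22225 in FAF. This sum follows its brightest probes and so does not describe most of the markers, 7 of the 8 being below 0. Their part in the values of Plaat3 and Pla2g5 was not tested. Pla2r1, the receptor that binds secreted phospholipases A2, gave 0.06 ± 0.09, with no direction that held under all processing alternatives.

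The products of phospholipases are lysophospholipids, which are re-acylated, transported or cut down to choline. Of 24 measured genes of lysophospholipid and choline handling, 1 was higher, Mfsd2a, a transporter of lysophosphatidylcholine, at 1.24 ± 0.10. In the same list 1 was lower, Mboat1, a lysophospholipid acyltransferase, at -1.58 ± 0.01. The other 22 did not pass, and the median was 0.29.

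A list of other hydrolases held enzymes of the brush border and the lumen, and also intracellular ones such as Lipa, Lipe and the carboxylesterases. Of its 15 measured genes, the rule called 6 higher and 0 lower, 9 did not pass, and the median was 0.45. Lct, lactase, which also has a glycosylceramidase site, gave 1.62 ± 0.26, or 3.08-fold higher, and Alpi, the intestinal alkaline phosphatase, 1.31 ± 0.10, or 2.48-fold. The dimmer measured probe of Alpi gave 0.93 ± 0.11, short of 2-fold. Asah2, the neutral ceramidase of the brush border, gave 1.26 ± 0.03, or 2.40-fold, and its dimmer probes gave smaller ratios in the same direction, down to 0.69. Ces2a, a carboxylesterase, gave 1.18 ± 0.08. Absorptive enterocyte markers, which share Lct and Alpi with this list, were all measured, 14 of 14. The rule called 6 of them higher and 0 lower, their median being 0.90, led by Fabp1, the liver-type fatty acid binding protein, at 2.02 ± 0.14 and Sis, sucrase-isomaltase, at 1.70 ± 0.07. Their summed signal ranged from 448914 to 547992 in Conv and from 897222 to 968816 in FAF. Of the 14 markers, 13 were above 0, and 1, Anpep, was below at -0.152 ± 0.165. Plb1, an enterocyte enzyme chosen with its ratio known, was at -3.06. The part of enterocytes in the Plb1 value was not tested.

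Downstream of arachidonic acid, 23 genes of eicosanoid synthesis and breakdown were measured, of which 5 were higher, 0 were lower and the median was 0.32. Cyp2j6, an epoxygenase of arachidonic acid, gave 2.27 ± 0.03, or 4.82-fold higher, and 1.96 on its other probe. Ephx2, the soluble epoxide hydrolase that acts on such epoxides, gave 1.80 ± 0.05, or 3.48-fold. Ltc4s, the synthase of leukotriene C4, gave 1.48 ± 0.12 and Hpgd, which inactivates prostaglandins, 1.08 ± 0.02. Of 16 measured receptors of eicosanoids and lysophospholipids, 0 passed in either direction; the median was 0.06, and the largest ratios were those of the lysophosphatidic acid receptors Lpar2, 0.61 ± 0.03, and Lpar3, 0.56 ± 0.09.

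**Figure D5:**
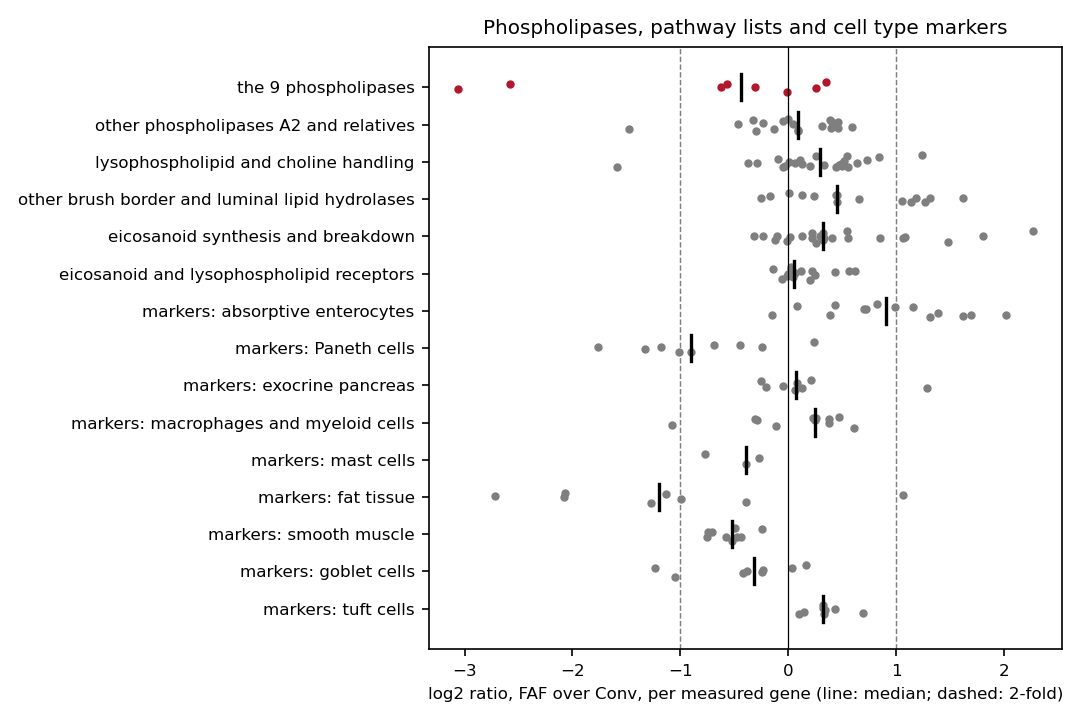
Log2 ratio of FAF over Conv (x axis) of each measured gene (points) in the 9 phospholipases (red), in lists of related enzymes and receptors, and in cell type markers (y axis), with the median of each list as a line and 2-fold as dashed lines. The row of other brush border and luminal lipid hydrolases also holds intracellular enzymes. That row and the enterocyte markers lie mostly above 0, Paneth cell and fat markers mostly below, and Plb1 and Pla2g5 are the lowest points of their row.

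Markers of further cell types that a piece of intestine holds were read beside these values. Smooth muscle markers were below 0 in 9 of 9, with a median of -0.52 and 0 past the rule, Synm and Des, both intermediate filament proteins, lying lowest at -0.76 ± 0.06 and -0.74 ± 0.16. Of 12 macrophage and myeloid markers, all measured, 1 was lower, Cd14, the co-receptor for lipopolysaccharide, at -1.08 ± 0.06, and the median was 0.24. Of 8 goblet cell markers, all measured, 2 were lower, Spink4 at -1.23 ± 0.03 and Agr2 at -1.05 ± 0.02, with a median of -0.32. Of 8 mast cell markers 3 were measured, below 0 with a median of -0.40, among them Mcpt1 at -0.78 ± 0.06 and Mcpt4 at -0.40 ± 0.03; Cpa3, Mcpt2, Cma1, Fcer1a and Tpsb2 were not above background. Of 9 tuft cell markers 8 were measured, all above 0 with a median of 0.32, with Rgs13 at 0.69 ± 0.06 and Sh2d6 at 0.44 ± 0.06. The part of these cell types in the Pla2g5 and Plb1 values was not tested.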

How the data were processed

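The deposited scanner files hold linear spot intensity and local background per dye, with quality flags, written by Feature Extraction 11.5.1.1 of Agilent, per the file headers. A deposited log10 ratio, Cy5 over Cy3, stands beside them, and the deposited value table equals it within 5.0e-08, without turning for the dye swap. From the mean intensity, limma 3.58.1 in R 4.3.3 corrected background (normexp, offset 50) and normalized each array by loess, with control spots at weight 0. Each log2 ratio was signed as FAF over Conv from the labelled dyes, and the arrays were averaged. Spots with an outlier flag, 116 and 95 of 43379, were left out, and 0 were saturated; the 2 arrays limit the precision. Levels and bounds used quantile scaling of average intensity (Aquantile). A gene was read from its brightest measured probe, 25440 of 41174 probes being measured. Current RefSeq names (GRCm38.p6) were given to 27668 probes by accession, and 13506 keep the array's name. Positions are the files' own (mm9).

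With 1 RNA sample per diet no test was made. Members and gene lists were chosen with earlier results of these data known. The text names all member probes, up to 4 genes per direction past the rule in each pathway list (2 in marker lists), or otherwise the 2 of largest ratio, and the 3 genes nearest to Plb1 and to Pla2g5. The steps were tested on simulated data. Recovery was scored only on spots brighter than the median, so it says nothing of dim probes. The simulated dye trend was the one that loess had fitted to these arrays, so its removal was close to given. Alternatives covered background, normalization, the software's ratio, filters, probe choice, single arrays and the size limit.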

Additional observations from a re-analysis of the deposited data

How the results depend on the processing

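Plb1 and Pla2g5 were the members called lower, and 0 members were called higher, under each of the 12 alternatives, except that a mean limit of 1.5-fold added Pla2g2a, making 3. Over all genes, 82 were lower and 183 higher with median centring in place of loess. The software's ratio and the deposited value table gave 350 lower and 487 higher, a mean of 1.5-fold with the arrays the same way, which also drops the limit on each array, gave 616 and 775, and a limit of 4-fold gave 18 and 31. These last counts differ by the construction of the rule, and the cause of the others was not tested. With either array alone, 144 to 172 genes were lower and 268 to 286 higher. Of the 12 measured member probes, 11 kept their sign under all 7 alternatives that change the ratio, Pla2g4c being the exception. These alternatives are not independent. The software's ratio and the deposited value table hold the same values, and the single arrays are the parts of the mean. Under median centring, which leaves the dye trend in place, single arrays disagreed in sign for every measured member other than Plb1 and Pla2g5. Pla2g12b, for example, gave 1.11 and -0.34. The arrays kept the same sign for Plb1 A_52_P686218, at -2.24 and -3.78, and for Pla2g5, at -1.95 and -3.11. For the members with small ratios, the same sign on both arrays thus depends on loess. With the dye trend left in, only the mean is readable. The medians of 2 of the 16 lists, Pla2r1 and the other phospholipase families, took both signs. Some medians that kept their sign still moved in size. That of the fat markers ran from -2.126 to -1.078, that of the mast cell markers from -0.925 to -0.115, and that of the pancreas markers from 0.018 to 0.302.

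Signal over background limits the dim probes: 3 of the 4 Plb1 probes and Pla2g1b were not well above background in FAF, Pla2g4c stood well above background in Conv on 1 of 2 arrays, and the value of a dim probe moves with the background method. No paired analysis was possible because each diet has 1 RNA sample. Both arrays use the same RNA, so agreement between them says nothing about other mice.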

Other observations

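Phospholipases of other classes were read from a list assembled after the names on the array had been seen. The list also took in proteins related to them by name, such as Plaa, Plcl1 and Pnpla2, which need not be phospholipases. Of the 34 genes of this list, among them phospholipases C and D and the lysosomal phospholipase B-like proteins, 26 were measured. By the rule of size, 0 were higher and 0 lower in FAF, and the median was -0.02. The median of the measured brush border, secreted and cytosolic members was -0.44. Those members were chosen with the ratios of Plb1 and Pla2g5 known, so nothing is read from the difference between these medians. The highest ratios were those of Plbd1, a phospholipase B-like protein of lysosomes and neutrophils unrelated to the brush border enzyme, at 0.82 ± 0.01, and Pld1, a phospholipase D that makes phosphatidic acid, at 0.68 ± 0.14. The lowest, named after its value was seen, was Plch2, a phospholipase C, at -0.60 ± 0.03. Plbd1 and Plb1 share a name and not a direction in these samples, 0.82 against -3.06.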
